A study of Mus musculus with 6 samples.

Results

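The genes described here are the cytosolic and endosomal sensors of RNA and their adaptors: *Ddx58*, *Ifih1*, *Dhx58*, *Zbp1*, *Tlr3*, *Eif2ak2*, *Mavs*, *Adar* and *Ticam1*. They were taken by symbol, and all 9 were found once each among the 54331 genes listed. The cells were male mouse embryonic fibroblasts (MEFs) from E13.5 embryos of a mixed C57BL/6, DBA/2 and ICR background that carried the Oct4-EGFP transgene. Every culture had received retroviruses for Oct4, Sox2 and Klf4 (OSK) and for AKT-MER, a myristoylated AKT fused to a modified estrogen receptor that 4-hydroxytamoxifen (4OHT) switches on. From 3 days postinfection (dpi), the OSKA + 4OHT group was given 4OHT and the OSKA − 4OHT group was given ethanol as vehicle. PolyA RNA was sequenced at 10 dpi from 3 wells of each group. The wells were plated from transduced cells, so p-values measure the spread between wells. Cells without AKT-MER are not among these 6 libraries, and AKT activation and 4OHT itself cannot be told apart in them. The authors compared OSK cells without AKT-MER, with and without 4OHT, by colony counts and by microarrays on an earlier day. They reported that 4OHT had limited effects there. The question asked of these genes was whether their RNA differed between the groups.

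RNA sensors detect double-stranded or otherwise unusual RNA of the kind made by viruses and by some transcribed retroelements. RIG-I (*Ddx58*) and MDA5 (*Ifih1*) signal through MAVS on mitochondria, TLR3 signals from endosomes through TRIF (*Ticam1*), and both routes lead to type I interferon. Interferon in turn raises most sensor genes through the interferon-stimulated response element (ISRE), a promoter sequence built around repeated GAAA.

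The promoters are shown first because the sensors are textbook interferon-stimulated genes. RefSeq promoter windows on GRCm38.p6, from 250 bases before to 50 bases after an annotated start, were found for 7 of the 9 genes, and no window was found for *Dhx58* or *Zbp1*. The ISRE core, spelled as GAAA, any 2 bases and GAAA again, was searched on both strands and stood in the windows of 3 of those 7 genes, against 3.99% of 27025 genes with a window. In the stretches below, written 5′ to 3′ on the strand of the gene, capitals mark the match. Positions are counted from the annotated start base as 0.
*Ifih1*, chr2:62646206-62646235, minus strand, match at bases 32 to 41: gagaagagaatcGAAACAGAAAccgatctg
*Eif2ak2*, chr17:78882535-78882564, minus strand, match at bases 18 to 27: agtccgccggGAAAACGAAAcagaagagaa
*Ddx58*, chr4:40239804-40239833, minus strand, match on the opposite strand at bases 2 to 11: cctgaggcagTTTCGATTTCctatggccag
A shorter form, with only 1 base between both GAAA runs, was chosen after these sequences had been seen. It stood in the windows of 2 of the 7 genes, against 3.70% of all genes with a window. A stretch can hold the shorter form without the longer one.
*Ddx58*, chr4:40239866-40239895, minus strand, match at bases −60 to −52: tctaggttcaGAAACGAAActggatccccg
*Adar*, chr3:89730736-89730765, plus strand, match at bases 28 to 36 from the start of 1 of its 3 windows: ccttttcaagGAAACGAAAgtgaactctgg
The windows of *Tlr3*, *Mavs* and *Ticam1* held neither form. A match is a run of letters and not a measured binding site.

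The sensor genes *Zbp1*, *Dhx58*, *Ifih1* and *Ddx58*, were higher in OSKA + 4OHT cells and were called, which here needs an adjusted p below 0.05 together with a log2 fold change of more than 1 in size. *Zbp1* rose by 5.49 times in mean TPM (the share of all transcripts in a library, scaled for gene length), *Dhx58* by 4.86, *Ifih1* by 2.58 and *Ddx58* by 2.25. *Eif2ak2* rose as well, by 1.98 times, with an adjusted p-value under 0.05 but a log2 fold change just under the fold limit. *Mavs*, *Adar*, *Tlr3* and *Ticam1* did not pass. Tests were made with limma-trend on log2(TPM + 0.5), adjusted by the Benjamini-Hochberg method over the 15382 genes that averaged 1 TPM or more, and all 9 genes were among these.

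Thus 4 of 9 genes were called higher and 0 lower, where 2.87% of all genes tested were called higher and 1.37% lower. The 4 fell to 2 in limma without a trend and to 1 or 2 with any single library left out, and *Zbp1* was called each time. With the adjusted p-value alone, 5 of 9 were higher and 0 lower, beside 3.52% and 1.97% of all genes. For 6 of 9 genes each OSKA + 4OHT well was above each OSKA − 4OHT well, beside 18.1% of all genes. The median log2 fold change of the 9 genes was 1.05, and that of all genes tested was 0.14. All 9 values were above 0, as were 59.3% of those of all genes. That general shift depended on scaling. It was 0.03 after scaling by trimmed means of log ratios and −0.0047 after quantile normalization, and the 9 genes then stayed above 0, with *Ticam1* lowest at 0.25 and 0.17. Of the calls over all genes, 67.7% were higher as reported, 55.4% with trimmed means and 53.1% with quantiles.

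**Figure D1:**
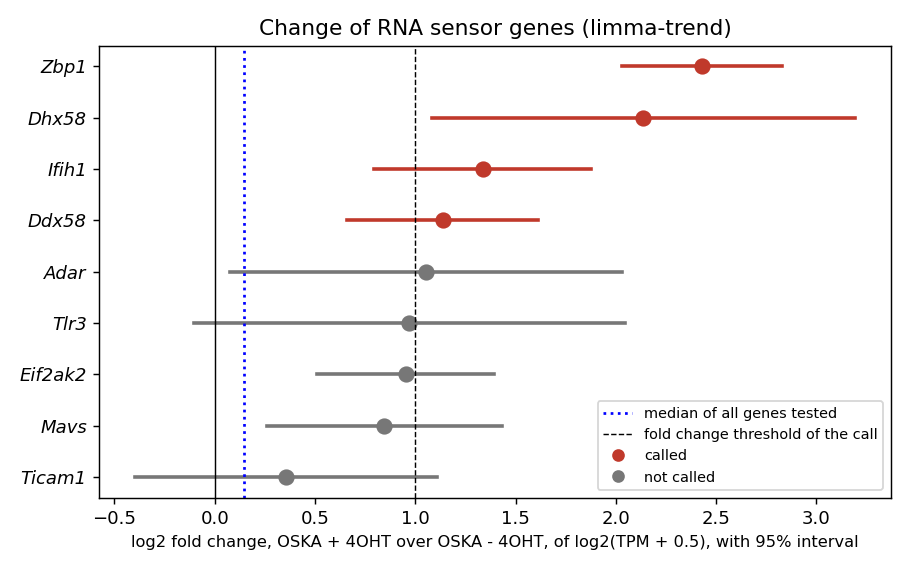
Log2 fold change of each gene (OSKA + 4OHT over OSKA − 4OHT, of log2(TPM + 0.5)) with its 95% interval from limma-trend, 3 wells per group. The 4 called genes, *Zbp1*, *Dhx58*, *Ifih1* and *Ddx58*, lie to the right of the dashed line at the fold limit of 1. So does *Adar* (1.05), which was not called. The intervals of *Tlr3* and *Ticam1* include 0.

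The RIG-I-like receptors came first in size after *Zbp1*. *Ddx58* (ENSMUSG00000040296; chr4:40203773-40239828, minus strand, GRCm38), the helicase that binds RNA ends, stood at 39.96, 39.77 and 44.01 TPM in wells 1, 2 and 3 of the OSKA − 4OHT group. In the OSKA + 4OHT group it was at 69.8, 100.8 and 107.6 TPM, and the same order of wells is kept for the genes that follow. The groups did not overlap, and OSKA + 4OHT replicate 1 was the lowest of its group. Its log2 fold change was 1.14 ± 0.20 (SE, n = 3 per group; limma-trend adjusted p = 0.0289). The call was lost without any 1 of 5 libraries (adjusted p from 0.0706 to 0.114), and only without OSKA + 4OHT replicate 1 did it hold (adjusted p = 0.0375; limma-trend). *Ddx58* also missed the limit with trimmed mean scaling (adjusted p = 0.0502; limma-trend) and in limma without a trend (adjusted p = 0.0572).

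*Ifih1* (ENSMUSG00000026896; chr2:62595798-62646255, minus strand), the sensor of long double-stranded RNA, was less abundant. It was at 7.23, 6.20 and 9.89 TPM without 4OHT and at 18.6, 20.9 and 20.7 TPM with it. The 3 wells with 4OHT lay close together, at more than the highest control well. The log2 fold change was 1.34 ± 0.22 (SE, n = 3 per group; limma-trend adjusted p = 0.0268). The call held without OSKA − 4OHT replicate 3 (adjusted p = 0.0333) and was lost without each of the other 5 libraries (adjusted p from 0.0732 to 0.106; limma-trend).

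*Dhx58* (ENSMUSG00000017830; chr11:100694884-100704271, minus strand) encodes LGP2, the family member without signaling domains that tunes the other receptors. Its levels were 2.61, 5.98 and 5.58 TPM in OSKA − 4OHT wells, the lowest mean of the 9 genes there, and 19.5, 35.2 and 14.1 TPM in OSKA + 4OHT wells. The groups did not overlap, but the treated wells spread widely, with an SD of 10.99 TPM around 22.9 TPM. On the log2 scale, the change was 2.14 ± 0.44 (SE, n = 3 per group; limma-trend adjusted p = 0.0457). It was lost without each of the 6 libraries (adjusted p from 0.0707 to 0.135; limma-trend), and the adjusted p was 0.0709 with no filter on low values and 0.0691 in limma without a trend. *Dhx58os* lies on the other strand at this locus and was listed at 0 in all 6 libraries.

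*Zbp1* (ENSMUSG00000027514; chr2:173206612-173218923, minus strand), a sensor of Z-form nucleic acid that can start necroptosis, had the smallest adjusted p of the 9 genes. It was at 23.2, 25.6 and 28.2 TPM without 4OHT and at 118.7, 148.9 and 155.2 TPM with it. The lowest treated well was far above the highest control well. This gave a log2 fold change of 2.43 ± 0.17 (SE, n = 3 per group; limma-trend adjusted p = 0.00342), with a 95% interval of 2.03 to 2.83. It kept an adjusted p-value under 0.05 in all 16 other settings tried, 6 of them with a library left out (adjusted p from 0.0127 to 0.0240; limma-trend).

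*Tlr3* (ENSMUSG00000031639; chr8:45395665-45411080, minus strand), the endosomal receptor of double-stranded RNA, varied between wells. It was at 5.03, 10.3 and 14.1 TPM in the OSKA − 4OHT group and at 19.8, 25.8 and 11.7 TPM in the OSKA + 4OHT group. The groups overlapped, since OSKA + 4OHT replicate 3 was below OSKA − 4OHT replicate 3. The log2 fold change of 0.97 did not pass (95% interval −0.11 to 2.05; limma-trend adjusted p = 0.279). Intervals given here are not adjusted for the number of genes.

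**Figure D2:**
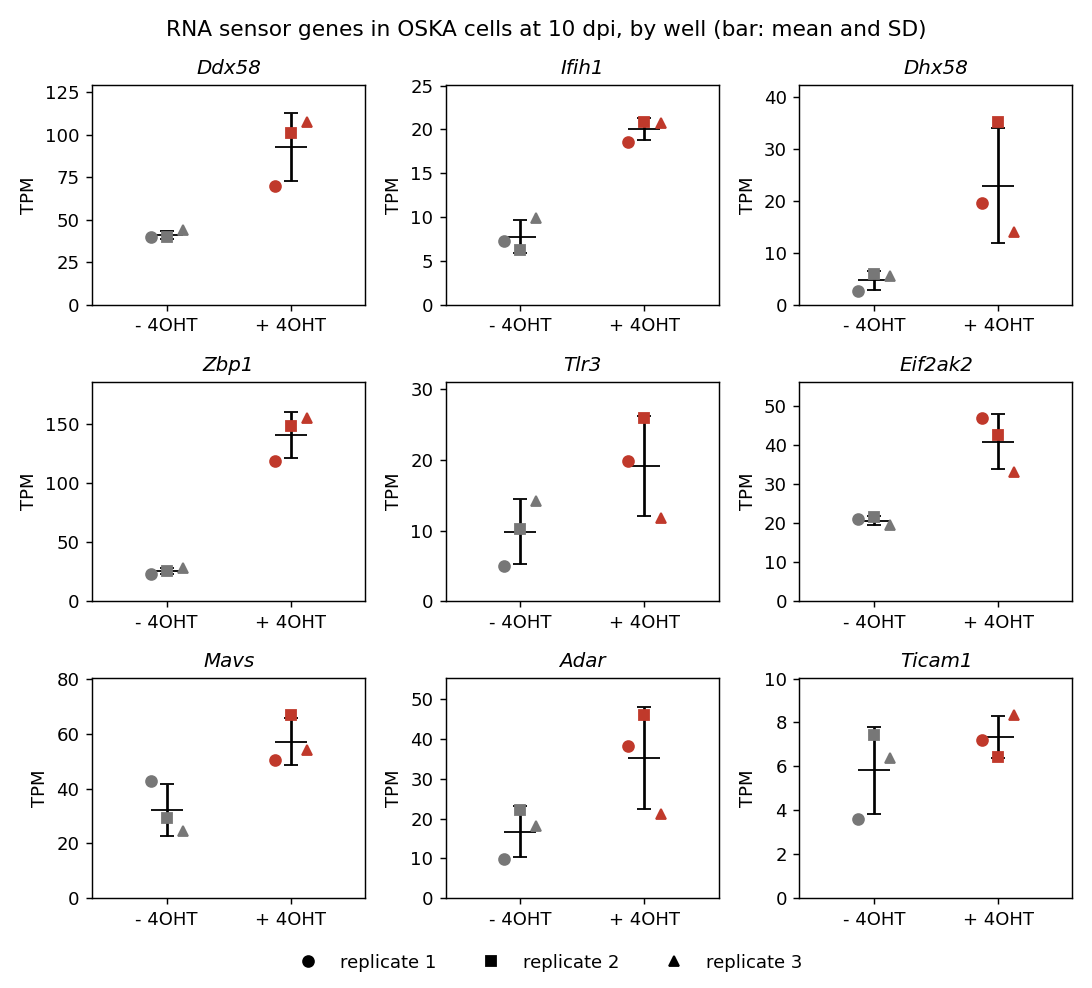
TPM of each gene in each well, with OSKA − 4OHT in grey and OSKA + 4OHT in red, symbols for replicate numbers, and bars for mean and SD (n = 3 per group). Each panel has its own axis from 0. The groups are apart for *Ddx58*, *Ifih1*, *Dhx58*, *Zbp1*, *Eif2ak2* and *Mavs*, and overlap for *Tlr3*, *Adar* and *Ticam1*.

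*Eif2ak2* (ENSMUSG00000024079; chr17:78852564-78882573, minus strand) encodes PKR, the kinase that halts translation when it binds double-stranded RNA. The control wells were tight, at 21.1, 21.6 and 19.6 TPM, and the treated wells were at 46.9, 42.7 and 33.2 TPM. The groups did not overlap. The change on the log2 scale was 0.95 ± 0.18 (SE, n = 3 per group; limma-trend adjusted p = 0.0389). The adjusted p-value was 0.0434 without OSKA + 4OHT replicate 3, where the log2 fold change of 1.09 passed the fold limit too, and 0.0923 to 0.141 without each of the other 5 libraries (limma-trend). In limma without a trend it was 0.0635. The overlapping *n-R5s29* on the other strand was listed at 0 in all libraries. Another overlapping gene on that strand, *Gm26637*, is not among the genes listed, so its level is not known.

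*Adar* (ENSMUSG00000027951; chr3:89715022-89753446, plus strand) encodes the enzyme that edits adenosine in double-stranded RNA and so keeps cellular RNA from being sensed. It was at 9.79, 22.2 and 18.1 TPM in control wells and at 38.3, 46.0 and 21.1 TPM in treated wells. OSKA + 4OHT replicate 3 was below OSKA − 4OHT replicate 2, so the groups overlapped. Its log2 fold change of 1.05 did not pass (95% interval 0.08 to 2.03; limma-trend adjusted p = 0.205). The gene has 9 transcripts in the reference annotation, and gene-level values do not separate the interferon-inducible isoform from the constant one. *Chrnb2*, which overlaps it on the other strand, did not exceed 0.343 TPM.

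Neither adaptor passed. *Mavs* (ENSMUSG00000037523; chr2:131234063-131248025, plus strand), which RIG-I and MDA5 share, was at 42.7, 29.3 and 24.7 TPM in control wells and at 50.6, 66.9 and 54.1 TPM in treated wells. The groups did not overlap, and the highest control well, replicate 1, was near the lowest treated well. The log2 fold change was 0.85 (95% interval 0.26 to 1.43; limma-trend adjusted p = 0.108). *Ticam1* (ENSMUSG00000047123; chr17:56269319-56276786, minus strand) was at 3.62, 7.43 and 6.38 TPM in control wells and at 7.21, 6.44 and 8.34 TPM in treated wells. All but OSKA − 4OHT replicate 1 lay within one narrow range. Its log2 fold change was 0.36 (95% interval −0.40 to 1.11; limma-trend adjusted p = 0.563), so a change of 1 is within the interval.

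Because TPM is scaled for gene length, levels could be ordered between genes. In the OSKA − 4OHT group the order by mean TPM was *Ddx58* (41.2), *Mavs* (32.2), *Zbp1* (25.7), *Eif2ak2* (20.7), *Adar* (16.7), *Tlr3* (9.81), *Ifih1* (7.77), *Ticam1* (5.81) and *Dhx58* (4.72). Only *Zbp1* and *Eif2ak2* among neighbours in that order had ranges over wells that did not overlap. In the OSKA + 4OHT group *Zbp1* came first, at 140.9 TPM, followed by *Ddx58* (92.7), *Mavs* (57.2), *Eif2ak2* (41.0), *Adar* (35.1), *Dhx58* (22.9), *Ifih1* (20.1), *Tlr3* (19.1) and *Ticam1* (7.33). There *Zbp1*, *Ddx58* and *Mavs* were each separate from the next gene, as was *Tlr3* from *Ticam1*, and the other neighbours overlapped. *Dhx58* thus moved from rank 9 to rank 6 and *Zbp1* from rank 3 to rank 1. The 9 genes together summed to 155.3, 168.3 and 170.5 TPM in control wells and to 389.5, 493.7 and 426.0 TPM in treated wells.

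A sensor gene and the adaptor gene of its pathway were also compared within each library. This cancels a factor that scales a whole library, except for the part due to the 0.5 TPM added to each value. *Dhx58* was set against *Mavs*, the adaptor of the receptors that LGP2 tunes. The log2 ratio of (TPM + 0.5) of *Dhx58* to *Mavs* was −3.80, −2.20 and −2.05 in OSKA − 4OHT wells and −1.35, −0.92 and −1.91 in OSKA + 4OHT wells. The treated wells were all higher, with a mean difference of 1.29. That difference was 1.38 with 0.1 TPM added in place of 0.5, and 1.03 with 2 TPM added. The exact two-sided permutation test gave p = 0.1, the smallest that 3 wells against 3 allow, and 0.4 after Benjamini-Hochberg adjustment over the 4 ratios. The ratio of *Ddx58* to *Mavs* differed by 0.29, between means of 0.39 ± 0.46 and 0.68 ± 0.27 (SD, n = 3; exact permutation p = 0.4). That of *Ifih1* to *Mavs* differed by 0.49, between −1.97 ± 0.62 and −1.48 ± 0.16 (SD, n = 3; exact permutation p = 0.4). That of *Tlr3* to *Ticam1* differed by 0.61, between 0.65 ± 0.38 and 1.26 ± 0.74 (SD, n = 3; exact permutation p = 0.2). The groups overlapped in these last 3 ratios, and each of the 4 has an adjusted value of 0.4. Since this test cannot go below 0.1 here, it could not pass 0.05 whatever the values were.

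**Figure D3:**
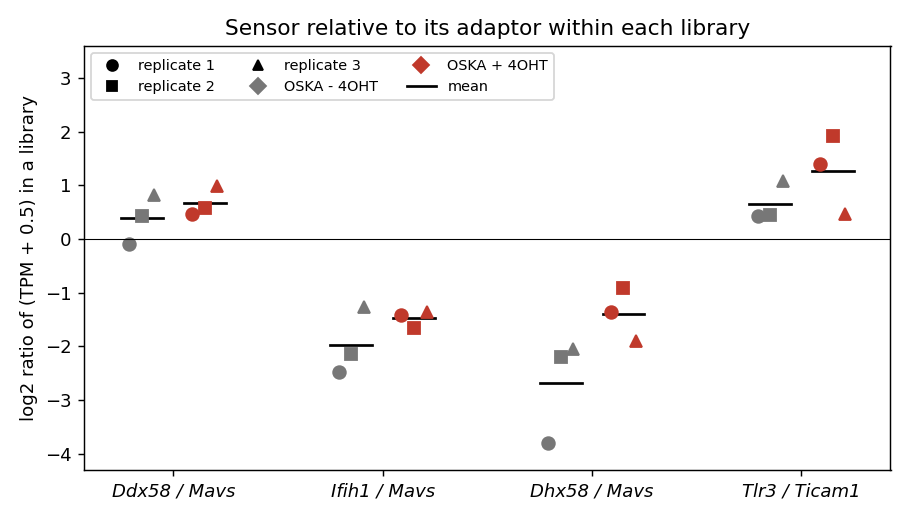
Log2 ratio of (TPM + 0.5) of a sensor to the adaptor of its pathway in each library, OSKA − 4OHT in grey and OSKA + 4OHT in red, with black bars for group means (n = 3). Only for *Dhx58* over *Mavs* do all treated wells lie above all control wells.

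Within each group, *Dhx58*, *Tlr3* and *Adar* were at their lowest in the same library. That was OSKA − 4OHT replicate 1, where *Zbp1* and *Ticam1* were lowest too and *Mavs* was highest, and OSKA + 4OHT replicate 3, where *Eif2ak2* was lowest too and *Zbp1*, *Ddx58* and *Ticam1* were highest. These 2 libraries also had the largest share of TPM from mitochondrial genes, 19.3% and 20.8%, beside 13.9% to 16.1% in the other 4. They had the fewest genes above 0 in their groups, 15814 and 17578, where the whole range was 15814 to 18230. The part of this in the results was not tested. Without OSKA + 4OHT replicate 3, the log2 fold changes of *Dhx58*, *Tlr3* and *Adar* were 2.43, 1.28 and 1.38 (adjusted p = 0.0707, 0.221 and 0.139; limma-trend). Without OSKA − 4OHT replicate 1, they were 1.80, 0.58 and 0.72 (adjusted p = 0.0958, 0.470 and 0.364; limma-trend).

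Cell type markers moved as well. All 8 fibroblast markers, the type that the labels name, were detected, with sums of 6136 to 7958 TPM over control wells and of 3975 to 5273 TPM over treated wells. The collagens and *Vim* made up most of these sums. Of the 8 log2 fold changes, 7 were below 0 with a median of −0.47. For 6 of the 8 genes every treated well was below every control well, as for 1543 of the 15382 genes tested. *Pdgfrb* and *Col1a2* fell (log2 fold changes −1.65 and −0.88; adjusted p = 0.0113 and 0.0285, limma-trend). *Thy1* went the other way without passing, at 197.7, 207.6 and 133.0 TPM in control wells and 221.7, 267.9 and 389.5 TPM in treated wells (log2 fold change 0.69; adjusted p = 0.203, limma-trend), and *Pdgfra* had a log2 fold change of −0.12. Of 8 pluripotent cell markers, 5 were called higher (*Dppa5a*, *Nanog*, *Zfp42*, *Tdgf1* and *Epcam*), beside 2.87% of all genes tested. Their list summed to 28.2 to 39.2 TPM in control wells and to 93.8 to 115.4 TPM in treated wells. Of 10 macrophage markers, 4 had log2 fold changes above 0 and 6 below, and only *Lyz2* passed (log2 fold change −0.88; adjusted p = 0.0299, limma-trend). *Fcgr1*, at 0.390, 0.179 and 0.630 TPM in control wells and 0.641, 3.44 and 4.12 TPM in treated wells, did not overlap between groups and did not pass (log2 fold change 1.64; adjusted p = 0.256, limma-trend). Of the 10 macrophage markers, 1 had every treated well above every control well (18.1% of all genes did). Another 2 had every treated well below every control well (1543 of 15382 genes did). The sums, of which *Lyz2* was the largest part, were 129.7 to 159.5 TPM in control wells and 89.3 to 99.6 TPM in treated wells. With each library left out, the adjusted p was 0.0333 to 0.0542 for *Pdgfrb*, 0.0450 to 0.0972 for *Col1a2*, 0.0354 to 0.114 for *Lyz2* and 0.0115 to 0.0240 for *Dppa5a*, whereas *Nanog*, *Zfp42* and *Epcam* lost their calls each time and *Tdgf1* in 3 of 6 fits (limma-trend). *Ptprc* did not exceed 1.67 TPM in any well. The lymphocyte markers *Cd3e* and *Nkg7* were listed at 0 in all 6 libraries, and the sum of the 6 lymphocyte markers was 0.319 to 9.81 TPM in control wells and 3.38 to 6.93 TPM in treated wells. *Cd3g* made up most of that sum except in OSKA − 4OHT replicate 2, where it was listed at 0. The 4 endothelial markers summed to 21.4 to 27.9 TPM and 28.1 to 37.6 TPM. Only *Pecam1* and *Tek* among them were high enough to be tested, and neither passed, although *Tek* was higher in every treated well, at 12.8, 14.5 and 15.7 TPM in control wells and 23.2, 21.2 and 21.4 TPM in treated wells (log2 fold change 0.60; adjusted p = 0.102, limma-trend). In these bulk samples, more cells with a given RNA and more of that RNA per cell cannot be told apart. The part of any shift in cell makeup in the sensor results was not tested.

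The rest of the pathway was described with 8 lists holding 100 genes, of which 75 were tested. Of these, 3 were called higher and 0 lower, beside the 2.87% and 1.37% of all genes, and the median log2 fold change was 0.14, the same as over all genes. At an unadjusted p under 0.05 there were 18 of 75, beside 21.3% of all genes tested, a like share. The 20 interferon genes were not tested because each was listed at 0 in all libraries. These were *Ifnb1*, 14 genes for interferon alpha and relatives, *Ifne*, *Ifnk*, *Ifnl2*, *Ifnl3* and *Ifng*.

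Of 18 genes that relay the signal from MAVS and TRIF, none was called, 4 had an unadjusted p under 0.05 (21.3% of all genes did), and the median log2 fold change was 0.08 (limma-trend). The factor *Irf7*, which activates interferon genes and was singled out after its values were seen, was at 7.90, 30.5 and 5.37 TPM in control wells and at 58.5, 101.3 and 43.0 TPM in treated wells. The groups did not overlap, but the control wells were uneven, and its log2 fold change of 2.47 did not pass (95% interval 0.89 to 4.06; adjusted p = 0.0888, limma-trend). With each library left out, the adjusted p of *Irf7* was 0.0370 to 0.245 by limma-trend, under 0.05 only without OSKA − 4OHT replicate 2. In the 10 other settings, which kept all libraries, it was 0.0697 to 0.135 by limma, so *Irf7* passed in none of them. The kinase *Tbk1*, which phosphorylates IRF3, was even across wells, from 34.3 to 43.6 TPM.

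Of 16 cofactors and regulators of RIG-I-like receptors, 1 was called higher, beside 2.87% of all genes tested. An unadjusted p under 0.05 was found for 5 of them (21.3% of all genes), and the median log2 fold change was 0.11 (limma-trend). *Ddx60*, a helicase linked to RIG-I, was at 0.450, 0.538 and 0.710 TPM in control wells and at 3.65, 7.74 and 6.74 TPM in treated wells. All treated wells were above all control wells, and its log2 fold change was 2.57 ± 0.42 (SE, n = 3 per group; adjusted p = 0.0251, limma-trend). With each library left out, it ranged from 2.37 to 2.87, with adjusted p from 0.0547 to 0.123 (limma-trend), so the call was lost each time. *Trim25*, a ubiquitin ligase of RIG-I, went from 36.3, 32.7 and 40.2 TPM to 32.7, 27.9 and 28.4 TPM and did not pass (adjusted p = 0.365, limma-trend).

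Of 9 DNA sensors and nucleases, 2 were called higher (2.87% of all genes were), all 9 values were above 0 (59.3% of all genes), and the median log2 fold change was 0.76. *Ifi204*, a PYHIN protein that senses DNA, was at 11.5, 8.08 and 9.70 TPM in control wells and at 30.8, 36.5 and 40.4 TPM in treated wells. The groups were far apart, with a log2 fold change of 1.83 ± 0.21 (SE, n = 3 per group; adjusted p = 0.00853, limma-trend). That call was lost only without OSKA + 4OHT replicate 2 among the 6 libraries (adjusted p = 0.0506, limma-trend). The exonuclease *Trex1*, named here although the rule for named genes did not take it, was at 3.28, 8.86 and 4.23 TPM and at 17.2, 16.4 and 21.8 TPM. Its log2 fold change was 1.77 ± 0.37 (SE, n = 3 per group; adjusted p = 0.0481, limma-trend), and with each library left out the adjusted p was 0.0304 to 0.141 by limma-trend, under 0.05 only without OSKA − 4OHT replicate 2.

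In the other lists none was called. Of 11 other endosomal Toll-like receptors and partners, 7 were tested, with a median log2 fold change of −0.01 and 1 unadjusted p under 0.05 by limma-trend. *Tlr7*, *Tlr8* and *Tlr9*, receptors for single-stranded RNA and for DNA, did not exceed 1.13 TPM in any well. Of the 5 effectors of ZBP1, all with values above 0, the median was 0.23. The kinase *Ripk3*, which ZBP1 binds, was at 24.6, 25.8 and 32.6 TPM in control wells and at 41.7, 43.8 and 32.3 TPM in treated wells, with overlap (log2 fold change 0.50; adjusted p = 0.215, limma-trend). Among 11 other eIF2alpha kinases and partners the median was 0.01 with 2 unadjusted p-values under 0.05, and among 10 other double-stranded RNA binding proteins, 9 of them tested, it was −0.02 with 1 (limma-trend). The related kinases *Eif2ak1*, *Eif2ak3* and *Eif2ak4* had log2 fold changes of 0.25, −0.57 and 0.17, and the related editor *Adarb1* had −0.28, none of which passed.

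**Figure D4:**
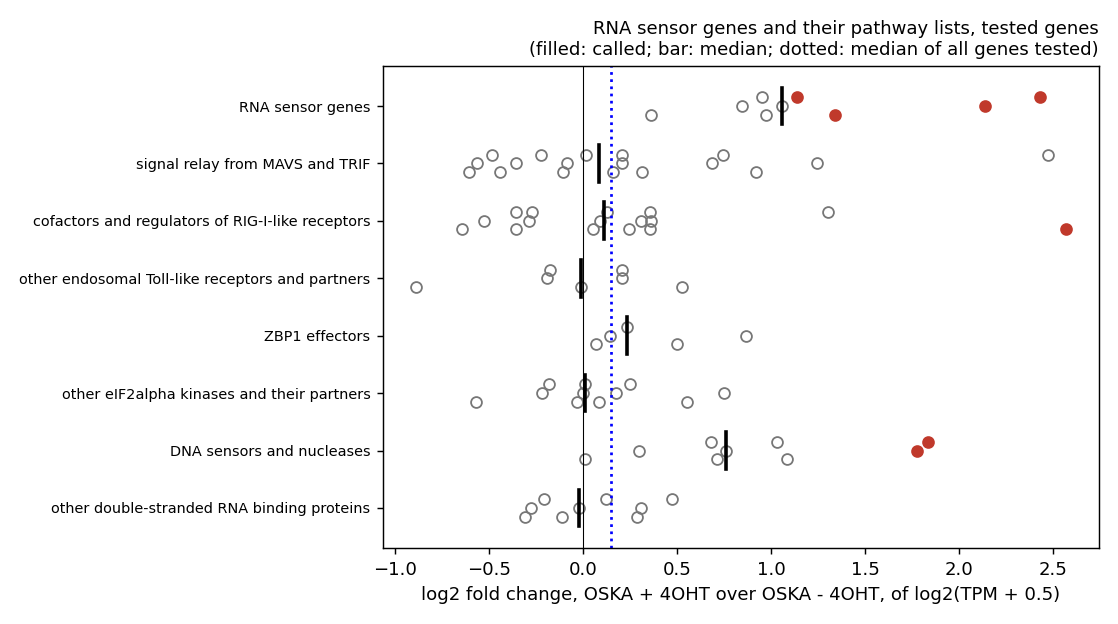
Log2 fold change (OSKA + 4OHT over OSKA − 4OHT, of log2(TPM + 0.5)) of the tested genes in the 9 sensor and adaptor genes and in 7 pathway lists. Filled points were called, black bars are list medians, and the dotted line is the median of all genes tested, 0.14. The bar of the RNA sensor genes stands at 1.05 and that of the DNA sensors and nucleases at 0.76, and the other 6 bars lie between −0.02 and 0.23.

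For each of the 9 genes, the tested gene with the most similar pattern was sought by Pearson correlation of log2(TPM + 0.5) over the 6 wells. It was *Got2* for *Zbp1* (r = 0.999), *AA465934* for *Ddx58* (0.996), *Map1b* for *Ifih1* (0.996), *Crabp1* for *Dhx58* (0.997), *Mrpl45* for *Eif2ak2* (0.9997), *Pgp* for *Tlr3* (0.997), *Mmp19* for *Mavs* (0.995), *Mrpl4* for *Adar* (0.992) and *Srpx2* for *Ticam1* (0.992). With 6 wells in 2 groups and 15382 genes searched, values this near 1 are a description, and none of the 9 nearest genes is in the pathway lists.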

How the data were processed

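The authors trimmed reads (50-bp single-end, stranded polyA kit) with Trim Galore and quantified them with Salmon against the mouse transcriptome; versions and annotation release are not given in the sources used here. The deposited TPM sum to 1000000 per library and keep no depth, so no counting interval can be given. The authors also deposited, per gene, a log2 fold change, a log2 average level, a score (F statistic) and a p-value of their own comparison, which were not used. Symbols and positions came from GENCODE M21 (GRCm38), matched by Ensembl identifier for 54097 of 54331 genes.

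limma-trend (limma 3.58.1, R 4.3.3) was fitted to log2(TPM + 0.5) of all 6 libraries without a block, on genes that averaged 1 TPM or more, and was tested on simulated data. Ratios were tested with SciPy 1.17.1. Named genes were the 9 genes, the largest rise and fall with an adjusted p under 0.05 in each list, the nearest gene by correlation, and markers. Other list genes named were chosen after their values were seen. One marker is not reported here by name. All 145 list genes were matched. The genes and lists were chosen with earlier results of these data known. Shares of 31-base stretches that transcripts have in common with other genes were 4.08% for *Eif2ak2*, 2.00% for *Ddx58* and under 0.3% for the others. Alternatives changed the filter, pseudocount, scaling, variance model and block, or left out a library.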

Additional observations from a re-analysis of the deposited data

How the results depend on the processing

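No fold change of the 9 genes reversed under any of the 16 alternatives. Of 144 values, 114 stayed on their side of the 0.05 limit and 30 lost it, all of the latter for *Ddx58*, *Ifih1*, *Dhx58* and *Eif2ak2*. Among the 114 are all values of *Tlr3*, *Mavs*, *Adar* and *Ticam1*, which had not passed to begin with and could not lose the limit. Of the 9 genes, 4 were called, 2 by limma without a trend and 1 with the replicate block (*Zbp1*), and 1 to 2 with a library left out. By adjusted p-value alone 5 passed, then 2, 1 and 1 to 2 in the same order. Over all genes, 441 were called higher and 210 lower, 31 and 16 with the replicate block, and 111 to 303 and 63 to 127 with a library left out, where fewer samples enter the fit. Of the pathway genes 3 were called, 0 with the block (limma-trend, 13 of 75 at an unadjusted p under 0.05) and 0 to 3 with a library left out (0 without OSKA + 4OHT replicate 2, with 12 of 75 at an unadjusted p under 0.05).

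Whether same-numbered wells belong together is not stated in the sources used here. Deviations of same-numbered wells from their group means correlated at 0.02, 0.03 and 0.08, beside −0.06 to 0.03 for other numbers. These few values cannot settle whether the wells were paired. Calls lost under the block therefore remain a limit of the results. Adjusted p-values with the block were 0.0499 for *Zbp1*, 0.0939 for *Ddx58*, 0.105 for *Ifih1*, 0.103 for *Dhx58* and 0.117 for *Eif2ak2* (limma-trend). With the block, the ratio differences were 0.29 (*Ddx58*), 0.49 (*Ifih1*), 1.29 (*Dhx58*) and 0.61 (*Tlr3*). The exact sign-flip p-values were 0.25, 0.5, 0.25 and 0.5. With 3 pairs this test cannot go below 0.25, so it could not pass 0.05 whatever the values were. With a library left out, the ratio differences were 0.05 to 0.51, 0.23 to 0.84, 0.73 to 1.61 and 0.28 to 1.01. With 3 wells per group and no depth in TPM, a gene that was not called is not shown to be unchanged, and counting error is not separated from well-to-well spread.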
